A study of Homo sapiens with 2 samples.

Results

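NeuroD1 binding around 10 genes of the neurogenic bHLH family was examined in IMR-32, a human neuroblastoma cell line with amplified MYCN and, by its label, an unmodified (WT) genotype. The genes were NEUROD1, NEUROD2, NEUROD4, NEUROD6, NEUROG1, NEUROG2, NEUROG3, ATOH1, NHLH1 and NHLH2, and a peak was counted for a gene when it overlapped the RefSeq gene body or lay up to 50 kb from either end. By this rule, 18 of the 6183 peaks of the library belonged to the family, and 6 of the 10 genes had at least 1 peak. In ChIP-seq, chromatin held by an antibody is sequenced, and places with more reads than the local background are called as peaks. The series consists of 1 library made with a NeuroD1 antibody and 1 input library, which is chromatin sequenced without the antibody step and was not analysed here. There was no replicate, so no difference could be tested across samples, and the intervals given cover counting error only. The written methods of the ChIP name an H3K27Ac antibody, whereas the sample label names NeuroD1, and the list was used as labelled. The paper describes these sites as bound by NeuroD1 and reports NeuroD1 motifs enriched among them. A peak list holds no expression values, so the cell type was not checked against markers.

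Members of this family encode basic helix-loop-helix transcription factors, which pair with broadly expressed E-proteins and bind the E-box, a short DNA word of the form CANNTG. The proneural factors NEUROG1, NEUROG2, NEUROG3 and ATOH1 act early and commit progenitors to a neuronal or endocrine fate. The NEUROD factors act after them in differentiation, and NHLH1 and NHLH2 are found in young neurons. Within such a cascade a factor may bind near its own gene or near those of its relatives, and the peak list allows both to be looked up.

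The 18 peaks were spread unevenly over the family. The NHLH1 window held 6 peaks, the NEUROD4 window 5, the NHLH2 window 3, the NEUROD6 window 2, and the NEUROD1 and NEUROD2 windows 1 each. NEUROG1, NEUROG2, NEUROG3 and ATOH1 had none. All 4 NEUROD genes and both NHLH genes therefore had a peak, and all 4 genes without one were the proneural genes. Of all 19974 protein-coding genes on the chromosomes with peaks, 40.0% had a peak in the same kind of window, and the share was 36.8% among the 6535 genes no longer than NEUROD1, which is the longest of the family at 12.2 kb. The 6 of 10 genes with a peak stand beside that background, and a count out of 10 allows no finer statement.

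Peaks touched the promoter sequences of 3 genes, NEUROD1, NHLH1 and NHLH2, where a promoter is taken as 250 bases before to 50 bases after the start site. Among the 15812 protein-coding genes with a promoter sequence, 13.7% had a peak there. The sequences of these promoters are shown because they are the DNA under or beside the peaks, and that of NEUROD6 is shown as a promoter with E-boxes and no peak. Each is the 250 bases before the start site on the strand of the gene, from RefSeq on GRCh38.p14, with every CANNTG in capitals. They lie at chr2:181680518-181680767 (NEUROD1, minus strand), chr1:160366821-160367070 (NHLH1, plus strand), chr1:115841127-115841376 (NHLH2, minus strand) and chr7:31340727-31340976 (NEUROD6, minus strand).
NEUROD1: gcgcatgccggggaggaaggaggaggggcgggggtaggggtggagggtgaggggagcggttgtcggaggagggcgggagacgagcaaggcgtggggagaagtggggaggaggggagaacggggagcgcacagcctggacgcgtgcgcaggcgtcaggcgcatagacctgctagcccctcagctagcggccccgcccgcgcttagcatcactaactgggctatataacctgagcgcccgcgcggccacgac
NHLH1: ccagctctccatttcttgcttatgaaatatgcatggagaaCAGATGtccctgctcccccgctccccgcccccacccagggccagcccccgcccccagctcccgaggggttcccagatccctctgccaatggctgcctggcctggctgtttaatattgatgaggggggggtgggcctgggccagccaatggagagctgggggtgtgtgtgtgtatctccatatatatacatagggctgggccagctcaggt
NHLH2: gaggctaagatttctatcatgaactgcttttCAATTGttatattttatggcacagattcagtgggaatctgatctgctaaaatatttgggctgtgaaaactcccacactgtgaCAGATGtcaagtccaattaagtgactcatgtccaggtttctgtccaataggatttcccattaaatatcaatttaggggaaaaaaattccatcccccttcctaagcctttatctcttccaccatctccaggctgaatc
NEUROD6: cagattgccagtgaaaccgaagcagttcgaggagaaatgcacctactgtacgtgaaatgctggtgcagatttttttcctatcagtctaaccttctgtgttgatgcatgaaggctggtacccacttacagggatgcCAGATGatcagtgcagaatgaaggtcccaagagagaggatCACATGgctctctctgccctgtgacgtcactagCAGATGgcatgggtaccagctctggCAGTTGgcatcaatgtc
The NHLH1 peak covers all 250 printed bases, the NHLH2 peak covers the last 162 and the NEUROD1 peak covers the first 71.

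NeuroD1, which drives the final differentiation of neurons and of pancreatic endocrine cells, had 1 peak at its own gene. It lay at chr2:181680697-181680903, just before the start site, with its summit 291 bp upstream and its nearer edge 180 bp from the gene. The fold enrichment, which divides the ChIP pileup at the summit by that expected locally after a pseudocount of 1 is added to both, was 6.54. This amounts to 19 reads (11.4 to 29.7, exact Poisson interval at 95%) over the summit, where about 2.0 were expected from the background. With that background held fixed, the read interval gives the peak a fold enrichment between 4.07 and 10. Its −log10 q was 8.25 and it ranked 3521 of 6183 by fold enrichment, a little under the median of all peaks (6.79). The next peak lay 211 kb away. The other protein-coding gene in the window was CERKL, which resembles ceramide kinase. The 71 bases of the promoter under the peak hold no E-box, and neither do the rest of the 300 bases, which have a GC content of 70.3%. The remaining bases of the peak, the summit among them, lie further upstream and their sequence was not used here.

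NEUROD2, a factor of later neuronal differentiation, had 1 peak at chr17:39617911-39618056, with its summit 10.1 kb upstream of the start. Its fold enrichment was 4.58, with 13 ChIP reads at the summit (6.92 to 22.2) and a −log10 q of 3.23. It was among the weakest of the family and of the whole list, with a rank of 5734. The nearest gene was the lncRNA LOC124903997 at 3.79 kb, and the nearest protein-coding gene was PPP1R1B, which encodes a dopamine-regulated phosphatase inhibitor, at 8.65 kb. The window also takes in CDK12, which encodes a kinase of transcription elongation, and STARD3, which encodes a cholesterol-binding protein of endosomes.

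NEUROD4, a NEUROD relative active in the developing retina and brain, had 5 peaks, and none of them lay within 10 kb of the gene. On the upstream side, the summit 31.4 kb before the start had a fold enrichment of 7.52 and 22 ChIP reads, and the summit 10.6 kb before it had 7.19 and 21 reads. The first of these lies within the lncRNA LOC107984515, 3.30 kb from TESPA1, a gene known from thymocyte selection. On the downstream side, 3 peaks lay within 10.5 kb of DNA at chr12:55057515-55067970. Their summits were 37.8, 41.3 and 47.9 kb after the start, with fold enrichments of 11, 8.37 and 10.8 and 27, 19 and 29 ChIP reads. For these 3 the nearest protein-coding gene was NEUROD4 itself, at 27.5, 31.0 and 37.8 kb, whereas the lncRNA LOC101927484 lay nearer, at 21.8, 25.3 and 32 kb. The outer peaks of this downstream group ranked 697 and 711 of all peaks, above the upper quartile of 8.68. The read intervals of all 5 peaks overlap, from 11.4 to 29.7 reads for the lowest and from 19.4 to 41.6 for the highest, so no order among them can be given.

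NEUROD6, a marker of differentiating cortical projection neurons, had 2 peaks downstream of the gene in a window with no other gene. The summit at 43.1 kb after the start, in the peak chr7:31297473-31297736, had a fold enrichment of 8.50, 25 ChIP reads (16.2 to 36.9) and a −log10 q of 14.2. The summit at 32.7 kb had a fold enrichment of 4.17, 16 reads (9.15 to 26.0) and a −log10 q of 3.40, over the highest background of the 18 peaks (3.0 reads). This second value was the lowest fold enrichment in the family. No peak was called on the NEUROD6 promoter printed above, which holds 4 E-boxes, 2 of them CAGATG.

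NHLH1, which encodes a helix-loop-helix factor of newly formed neurons, had the most peaks. The one with the highest fold enrichment covered the start site, at chr1:160366785-160367103 with its summit 153 bp upstream, and reached 10.9, 28 ChIP reads (18.6 to 40.5) and a −log10 q of 19.8. A pair of neighbouring peaks lay upstream of it, with summits 4.41 and 3.84 kb before the start, only 569 bp apart, and fold enrichments of 7.19 and 7.58. The peak after the gene, chr1:160374750-160374981, began 1.90 kb past its end and had a fold enrichment of 9.11 with 30 ChIP reads (20.2 to 42.8). These 4 peaks lay within 5 kb of NHLH1, and their read intervals overlap.

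The other 2 peaks of the NHLH1 window lay at the starts of neighbouring genes. The one at chr1:160400309-160400609 had its summit 142 bp from the start site of VANGL2, a gene of planar cell polarity, and also overlapped the lncRNA LOC105371466, with a fold enrichment of 10.5 and 24 reads, and the VANGL2 promoter sequence under it holds 1 CAGATG. The one at chr1:160343291-160343462 overlapped the promoters of both NCSTN, which encodes the nicastrin subunit of gamma-secretase, and COPA, a coatomer subunit gene, with a fold enrichment of 4.25 and 12 reads. This was the lowest read number of the 18 peaks. By distance these 2 peaks belong to the neighbours rather than to NHLH1, and the peak 4.41 kb upstream was also slightly nearer to NCSTN (3.60 kb) than to NHLH1 (4.12 kb).

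NHLH2, a close relative of NHLH1 known for its role in hypothalamic neurons, had 3 peaks, and no other protein-coding gene shares its window. The peak at chr1:115828622-115828993, 2.35 kb past the end of the gene, had the highest values of the family. Its fold enrichment was 15 (10.8 to 20.2 with the background held fixed), with 41 ChIP reads (29.4 to 55.6) over a background of 1.75 and a −log10 q of 35.2. It ranked 218 of 6183 by fold enrichment and was the 1 family peak above the 95th percentile of all peaks (13.8). The peak within the gene, with its summit 2005 bp after the start, had a fold enrichment of 7.49 and 16 reads (9.15 to 26.0). The peak over the start site, chr1:115841116-115841288, had a fold enrichment of 5.98 and 14 reads (7.65 to 23.5), with its summit 41 bp upstream. The read interval of the distal peak did not overlap those of the other 2. In fold enrichment its interval overlapped that of the peak within the gene (4.48 to 11.9) and not that of the peak over the start (3.46 to 9.76). All these fold intervals hold the background fixed, so any error in the background would widen them.

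The 4 genes without a peak differed in how far away the nearest one was. For NEUROG1, a proneural gene of sensory ganglia, it lay 56.7 kb from the gene, just outside the window, with a fold enrichment of 4.58 and 13 reads. For NEUROG2, which acts in sensory and cortical neurogenesis, the nearest peak was 170 kb away, and for NEUROG3, the factor of pancreatic endocrine progenitors, it was 209 kb away. ATOH1, the factor of cerebellar granule cells and inner ear hair cells, was the most isolated at 412 kb. Of all protein-coding genes, 22.1% had their nearest peak farther away than ATOH1, 35.0% farther than NEUROG3, 39.1% farther than NEUROG2 and 58.2% farther than NEUROG1, and the median distance was 94.9 kb. The list holds called peaks only, with at least 8 reads at every summit, so it gives no value for signal under the calling threshold at these genes.

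The strength of the family peaks lay around that of the whole list. Their fold enrichment ran from 4.17 to 15 with a median of 7.55 (95% interval of the median over the 18 peaks 6.54 to 10.5), beside 6.79 over all peaks. Of the 18 peaks, 13 lay above that median and 6 above the upper quartile. Their widths ran from 146 to 431 bp, with a median of 220 bp as in the whole list. The median summit held 21 ChIP reads, from 12 to 41, against 17 over all peaks. The implied background was also higher, with a median of 1.88 reads against 1.31, and 17 of the 18 peaks lay above the median background of the list; its part in the calls was not tested.

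Several of the genes had more than 1 peak. At least 2 were found for 4 of the 10 genes, against 17.1% of all protein-coding genes. At least 3 peaks were found for 3 of the 10 genes (NHLH1, NHLH2 and NEUROD4), against 7.41% of all protein-coding genes and 7.93% of those no longer than NEUROD1. At least 5 were found for NHLH1 and NEUROD4, against 1.6% of all protein-coding genes and 1.58% of those no longer than NEUROD1. NHLH1 alone had at least 6, against 0.751% and 1.01%. The NHLH1 count takes in the peaks at the starts of VANGL2 and of NCSTN and COPA described above. Together NHLH1, NHLH2 and NEUROD4 held 14 of the 18 peaks. The family windows held 1.71 peaks per 100 kb (95% exact Poisson interval 1.01 to 2.70). The merged windows of all protein-coding genes no longer than NEUROD1 held 0.515 (0.492 to 0.538). Neighbouring peaks are not independent events, so these intervals are too narrow, and no test was made of the difference.

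By position, 3 of the 18 peaks overlapped a gene of the family, 5 lay beside one at up to 5 kb and 10 lay farther away. The first 8 all belong to NEUROD1, NHLH1 and NHLH2. Of all 18, 12 lay in no annotated gene and 3 in another gene. For 13 of them the nearest protein-coding gene was the family member itself. Summits fell upstream of the start in 9 cases and downstream in 9. The peaks were picked for lying within 50 kb of these genes, which favours a family member as the nearest gene. No such counts over all peaks are given here, so these positions describe the 18 peaks only.

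The promoters of the 10 genes were searched for E-boxes on both strands (CANNTG reads the same on both, and CAGATG was counted together with its complement). RefSeq gives 11 promoter sequences for the 10 genes, since NHLH2 has an additional start site. Of the 10 genes, 7 had a CANNTG, and 68.7% of all 34961 promoter sequences hold one. CAGATG, the form that NeuroD motifs favour, was found at NEUROD2, NEUROD6, NHLH1 and NHLH2, which are 4 of the 10 genes and 4 of the 11 sequences, against 14.7% of all promoter sequences. CAGCTG, another form that NEUROD factors bind, was found at NEUROD4, NEUROG3 and NHLH2, against 18% of all sequences. Both CAGATG words inside a peak, at NHLH1 and at NHLH2, were followed by the bases TC, and lay 54 and 93 bp from the summits. They are the capitals CAGATG in the printed NHLH1 and NHLH2 sequences, 210 and 137 bases before the start. The CAGATG words outside a peak were followed by GC at NEUROD2 and by AT and GC at NEUROD6. So few words allow no statement on the bases that follow. The NHLH1 peak also covers a CAGGTG that spans the start site and therefore appears only in part at the end of the printed stretch. Likewise, the NHLH2 peak covers a CAATTG that spans the start site, 42 bp from the summit. NEUROD1, NEUROG1 and NEUROG2 have no E-box in these 300 bases. Across the family, then, a CAGATG in the promoter went with a peak there at NHLH1 and NHLH2, without one at NEUROD2 and NEUROD6, and was not found at NEUROD1, which has one. A match is a word in the sequence and does not show a bound site.

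Other tissue-specific bHLH genes give the family a context. In a list of 32 such genes, 11 had a peak in the body or within 50 kb, against the background of 40.0%. At least 3 peaks were found for 3 of the 32, against 7.41% of all protein-coding genes. ATOH8, an atonal relative, had 5 peaks, the highest within the gene with a fold enrichment of 15 and 50 reads. LYL1, a blood cell factor, had 5, although the highest (10.1-fold) lay 48.8 kb away. HAND1, a factor of heart and trophoblast, had 3 peaks with the highest (12-fold) at 27.3 kb, and its sympathetic relative HAND2 had 2, with the highest (6.18-fold) at 3.77 kb. The mesoderm factor TCF15 had 1 peak on its gene (9.64-fold). Single peaks further off were those of FIGLA (7.01-fold, 8.99 kb away), BHLHE23 (6.27-fold, 44.9 kb) and BHLHA9 (5.79-fold, 18.4 kb), and 1 peak of 5.48-fold lay in the windows of both TWIST1 and FERD3L.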

How the data were processed

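NeuroD1 ChIP-seq of IMR-32 cells (1 ChIP library) was analysed from the deposited peak list. Per the labels, the submitters' processing notes name BWA 0.7.17, MACS2 2.2.7 and hg38, while the peak names in the file contain macs3. Which control and q threshold were used is not given in the sources used here, and the lowest −log10 q was 1.38. The total number of reads is unknown. The authors deposited the fold enrichment (a ratio), the −log10 p and −log10 q at each summit, a score made from the −log10 q, and the fold enrichment divided by the peak width. The last 2 were not used.

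The numbers of ChIP reads and background reads were worked out for every peak from its fold enrichment together with its −log10 p, as MACS computes both (Poisson). The weight of 1 read (0.98) and the lowest background (1.04, at 35.1% of peaks) were inferred from the steps of the deposited values, and the solved −log10 p differed from the deposited one by at most 0.196%. The solver and the counting of peaks were tested on simulated data. Intervals at 95% are exact Poisson (reads), exact Clopper-Pearson (shares) or by rank (medians), and cover counting error only.

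Genes, promoters and their sequences came from RefSeq GRCh38.p14. All 10 genes matched by symbol. Positions are counted from 1. The genes and lists were chosen with earlier results of these data known. Named genes are the 10 members, the genes at their peaks, the protein-coding genes in windows with a peak, and the related bHLH genes with a peak, of which 1 is not reported here. Alternatives were other distances (10, 25 and 100 kb), stricter lists (a minimum of 5 for −log10 q or for fold enrichment), overlap by summit, rank by −log10 q and other motifs. No test across samples was possible. Scripts ran in Python 3.11.15 with scipy 1.17.1, numpy 2.4.6 and pandas 2.3.3, and figures were drawn with matplotlib 3.10.9.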

Additional observations from a re-analysis of the deposited data

How the results depend on the processing

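Of 37 alternative values, 24 stayed within the limit set for them (1.5 times for counts, the 95% interval of the value otherwise) and 13 moved. The number of peaks in the family windows, 18, was 11 within 25 kb and 9 within 10 kb, and the share of all protein-coding genes with a peak, 40.0%, was 31.7% and 25.2%. Within 100 kb that share was 51.0%. It was 33.8% over peaks whose −log10 q reached 5 and 37.5% over peaks whose fold enrichment reached 5. The density in the family windows, 1.71 peaks per 100 kb, was 3.55 within 10 kb and 0.925 within 100 kb. Related bHLH genes with a peak, 11 within 50 kb, were 7 within 10 kb and 18 within 100 kb. The moves in counts and shares go with shorter or longer windows or with fewer peaks. The density is already scaled to window length, and 9 of the 18 family peaks lie within 10 kb. The density around other genes is given here at 50 kb only. The values at 10 and 100 kb therefore have no background beside them and show nothing particular to the family. The number of family genes with a peak, 6, was 5 within 25 kb, 4 within 10 kb and 7 within 100 kb, where NEUROG1 is added, and 5 in each stricter list, from which the NEUROD2 peak is lost. Genes with an E-box in the promoter, 7, were 4 for CAGATG and 3 for CAGCTG, which are subsets of CANNTG. No paired analysis was possible because the ChIP has 1 library without a replicate, and with 12 to 41 reads at each summit most family peaks cannot be ranked against each other.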

Other observations

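The share of promoters holding CAGATG was counted over the whole list. It covers promoter sequences only, whereas the motif search reported in the paper was made on NeuroD1 binding sites. The word was found in 255 of 2921 promoter sequences that overlap a peak (8.73%, 95% exact Clopper-Pearson interval 7.73% to 9.81%) and in 15.2% of the 32040 that do not. Base composition moved with this. The median GC content was 68.0% in the promoters with a peak and 57.3% in the others. All promoters were split by GC content into 4 groups of about the same size. In the group with the highest GC content the shares were 6.94% with a peak and 5.11% without, and in the next group 108 of 1078 promoters with a peak held the word, against 12.6% without. In the group after that the shares were 10.4% and 20.9%, and the group with the lowest GC content held only 29 promoters with a peak, 8 of them with CAGATG (27.6%, against 20.2% without a peak). The direction of the shares thus differed between the groups, although the group with 29 promoters under a peak is too small to show one. NHLH1 and NHLH2, with GC contents of 61.0% and 41.7%, are promoters with both a peak and CAGATG, and NEUROD1, with 70.3%, has a peak and no E-box. Promoter sequences of start sites close to each other overlap, so they are not independent, and no test was made.

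The position of the same word was counted from the summit. In the 2404 promoter sequences that hold a summit, CAGATG occurred 0.505 times per kb within 50 bp of the summit (95% exact Poisson interval 0.418 to 0.606), 0.309 times at 50 to 100 bp (0.237 to 0.396) and 0.233 times at 100 to 300 bp (0.180 to 0.297). CAGCTG occurred 0.884 (0.767 to 1.01), 0.738 (0.624 to 0.867) and 0.598 (0.511 to 0.696) times per kb in the same steps. CAGGTG occurred 0.444 (0.362 to 0.539), 0.583 (0.483 to 0.699) and 0.606 (0.518 to 0.704) times. For both words the intervals of neighbouring steps overlap. CANNTG of any form occurred 3.35 (3.12 to 3.6), 2.92 (2.69 to 3.17) and 2.9 (2.7 to 3.1) times. The CAGATG words of NHLH1 and NHLH2 fall in the middle step.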
